A study of Oncorhynchus mykiss with 27 samples.

Results

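The cDNA clones of *slc30a1* and *rhag*, a zinc transporter and an ammonium transporter, were examined in rainbow trout testis. They were chosen by name from the list of regulated clones published with the study, which gives 1 clone for each gene, *tcay0019.j.04* for *slc30a1* and *tcad0009.h.16* for *rhag*. They are 2 of the 9024 clones with a row on the arrays and 2 of the 4927 clones that were tested. The study had selected the clones of that list on the arrays of the cultured explants, and it placed both clones in the same expression cluster of 6 clones. The differences between the culture treatments are therefore given as a description, without a test.

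The protein encoded by *slc30a1*, also called ZnT-1, carries zinc out of the cell across the plasma membrane. Zinc is abundant in the testis, and cells balance its uptake by importers against its export and its binding by metallothioneins. The protein encoded by *rhag*, the Rh-associated glycoprotein, passes ammonium or ammonia through the membrane and is best known from mammalian red blood cells, where it holds the Rh complex together. In fish, Rh glycoproteins are known for ammonia excretion at the gill.

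Whole testis tissue came from an all-male trout population, and its explants were pooled, spread over wells and cultured for 96 h at 12°C. There were 6 arrays for each of 4 culture conditions. The medium of the wells was supplemented with Ultroser SF and was renewed during the culture. Ctrl wells had this medium without Fsh or trilostane, Fsh wells had purified Fsh added to 500 ng/mL, and Tri wells had trilostane added to 10 µg/mL. Fsh+Tri wells had both, at these concentrations, with trilostane given ahead of Fsh. A further 3 arrays hold tissue that was not cultured, from day 0 (T0). Fsh, follicle-stimulating hormone, acts on the somatic cells of the testis and raises their steroid output, and trilostane blocks 3β-hydroxysteroid dehydrogenase, an enzyme of that steroid synthesis. Because the wells were filled from the same pool, p-values measure only the spread between arrays of a group, mostly wells, which may be technical. The 3 T0 arrays add little to that spread, and the methods do not say whether their tissue came from the pool. In whole tissue, fewer cells of a type and less RNA per cell cannot be told apart.

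Between 8184 and 8972 clones had a value on each array, and the median spot intensity ran from 49.0 to 138.5. The median log2 value lay between 6.40 and 6.41 on every array. The array of Ctrl replicate 4 stood apart from its group. Its correlation with the other Ctrl arrays had a median of 0.87 across clones, against 0.92 to 0.95 for the other 5, and it held the lowest value of both *slc30a1* and *rhag* in Ctrl. The array of T0 replicate 1 had a median of 0.87 as well, against 0.90 and 0.91 for the other T0 arrays, and the lowest median spot intensity. For *slc30a1* and *rhag*, the treatment differences that involve Ctrl are also given without Ctrl replicate 4. Ctrl minus T0 is also given without each of these arrays. Further differences, such as those of the treated groups relative to T0, include them.

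Transcript levels of *slc30a1* were lowest in T0, intermediate in Ctrl, Fsh and Tri, and highest in Fsh+Tri. All levels are normalized log2 values. The 3 T0 arrays were at 7.99, 7.97 and 7.77, with a mean of 7.91 ± 0.12 (SD, n = 3). In Ctrl the lowest, median and highest values were 8.24, 8.68 and 9.02, with a mean of 8.68 ± 0.27 (SD, n = 6). Ctrl thus lay entirely above T0. In Fsh they were 8.47, 8.70 and 9.22, with a mean of 8.75 ± 0.26 (SD, n = 6), and in Tri they were 8.19, 8.55 and 8.91, with a mean of 8.52 ± 0.25 (SD, n = 6). The ranges of Ctrl, Fsh and Tri overlapped throughout. In Fsh+Tri they were 8.96, 9.36 and 9.47, with a mean of 9.31 ± 0.19 (SD, n = 6). All 6 Fsh+Tri arrays were above the highest Tri array, whereas 5 of 6 were above the highest Fsh array, which was Fsh replicate 3 at 9.22.

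For *slc30a1* the order of the means was T0, Tri, Ctrl, Fsh and Fsh+Tri. The steps from Tri to Ctrl, of 0.16, and from Ctrl to Fsh, of 0.07, were smaller than the SDs of the groups. The steps from T0 to Tri, of 0.61, and from Fsh to Fsh+Tri, of 0.56, exceeded both SDs.

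Mean transcript levels of *rhag*, from lowest to highest, had the order T0, Ctrl, Fsh, Tri and Fsh+Tri. The 3 T0 arrays were at 6.03, 5.82 and 5.70, with a mean of 5.85 ± 0.17 (SD, n = 3). In Ctrl the lowest, median and highest values were 6.15, 6.27 and 6.53, with a mean of 6.32 ± 0.15 (SD, n = 6). Both of these means lay below the median of the experiment, 6.40, so that *rhag* passed the filter on level only through the means of Fsh, Tri and Fsh+Tri, whereas *slc30a1* was above that median in every group. In Fsh the values were 6.05, 6.61 and 6.75, with a mean of 6.54 ± 0.26 (SD, n = 6). In Tri they were 6.51, 6.72 and 6.83, with a mean of 6.69 ± 0.12 (SD, n = 6). Of the 6 Tri arrays, 5 were above the highest Ctrl array. In Fsh+Tri they were 6.93, 7.27 and 7.88, with a mean of 7.37 ± 0.38 (SD, n = 6), and every Fsh+Tri array was above every Ctrl, Fsh and Tri array.

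The steps of *rhag* from Ctrl to Fsh, of 0.22, and from Fsh to Tri, of 0.15, were within the SD of Fsh. The steps from T0 to Ctrl, of 0.47, and from Tri to Fsh+Tri, of 0.68, exceeded both SDs. The spread of Fsh+Tri was the widest of the 5 groups, with replicates 5 and 6 at 7.77 and 7.88 and the other 4 at 6.93 to 7.38.

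**Figure D1:**
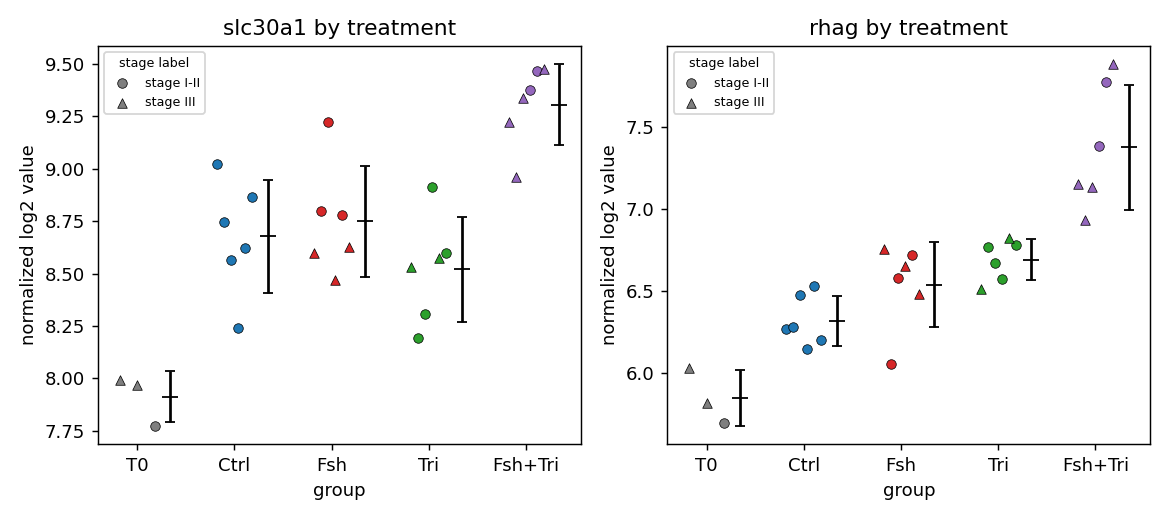
Normalized log2 values of *slc30a1* (left) and *rhag* (right) in each group. Each point is an array, its shape gives the stage label, and the bar beside each group is the mean ± SD. The highest mean of both clones is that of Fsh+Tri, at 9.31 and 7.37, and the lowest is that of T0, at 7.91 and 5.85.

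The study asked which responses to Fsh go through steroids, by adding Fsh without and with trilostane. For both transporters the difference made by Fsh was larger with trilostane than without it. For *slc30a1* Fsh minus Ctrl was 0.07 (SE 0.15), or 1.05-fold, and Fsh+Tri minus Tri was 0.79 (SE 0.15), or 1.72-fold. The difference of the responses was 0.71 (SE 0.21). For *rhag* Fsh minus Ctrl was 0.22 (SE 0.15), or 1.17-fold, and Fsh+Tri minus Tri was 0.68 (SE 0.15), or 1.61-fold. The difference of the responses was 0.46 (SE 0.21). The paper gives these contrasts as those on which the clones were chosen. Its filter asked for a 1.5-fold change between control and Fsh-treated groups, without or with trilostane. In the contrasts given here, both clones reached 1.5-fold only with trilostane. Other clones of the same cluster, *inhba* and *sl*, reached it in neither, so that the exact contrasts of the filter are not settled here. Fsh+Tri lay above Tri without overlap for both clones, as it did for 60 of the 4927 tested clones (1.22%). Given that choice, all tested clones are not a like comparator for this count.

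With trilostane alone the clones differed in sign, although the value of *slc30a1* was about the size of its SE. Tri minus Ctrl was 0.37 (SE 0.15), or 1.29-fold, for *rhag*, and -0.16 (SE 0.15) for *slc30a1*. In the presence of Fsh, the addition of trilostane made a difference of 0.84 (SE 0.15), or 1.78-fold, for *rhag* and of 0.56 (SE 0.15), or 1.47-fold, for *slc30a1*. For *rhag*, Fsh+Tri lay above Fsh without overlap, as it did for 67 of the tested clones (1.36%). It also lay above all arrays of Ctrl, Fsh and Tri together, which held for 3 of the tested clones (0.0609%). The study chose *rhag* on these same arrays, so that all tested clones are not a like comparator for these counts. Without Ctrl replicate 4, Fsh minus Ctrl was -0.02 for *slc30a1* and 0.19 for *rhag*, and Tri minus Ctrl was -0.24 and 0.34. The differences of the responses were then 0.80 and 0.50.

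Marker clones of other cells also differed between Tri and Fsh+Tri, some in the direction of the transporters and some against it. The mean over 4 Sertoli cell markers (*amh*, *dmrt1*, *inha* and *cldn11*) ran from 8.23 to 8.72 in Tri and from 8.80 to 8.92 in Fsh+Tri. Its members differed in direction, since the group mean of *amh* was 8.72 in Tri and 8.19 in Fsh+Tri, whereas *inha* was at 10.01 and 10.75, *cldn11* at 8.81 and 9.30 and *dmrt1* at 6.77 and 7.21. The single Leydig cell marker, *hsd3b1*, ran from 6.76 to 7.38 and from 7.28 to 7.78. The mean over 4 clones of macrophages and antigen presentation overlapped, at 7.69 to 7.97 and 7.80 to 8.01. Of these, the group means of the cathepsin S clones were 7.75 and 7.13 in Tri and 8.44 and 7.77 in Fsh+Tri, whereas those of the other 2 clones were 9.54 and 7.10 in Tri and 8.96 and 6.36 in Fsh+Tri. The mean over 2 smooth muscle clones (*des* and *smtn*) ran from 6.38 to 6.76 and from 6.12 to 6.47. These marker clones come from the same list of regulated clones, which the study chose in part on Fsh+Tri against Tri. That choice can itself favour clones that differ between these groups, so that the values do not measure cell content. The part of these cells in the result was not tested. None of the markers of red blood cells or of germ cells had a clone named here, so that the red blood cell content of the explants was not measured, although *rhag* is a red cell gene in mammals.

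Culture without added hormone was examined by Ctrl minus T0, for which the T0 arrays had no part in choosing the clones, though the Ctrl arrays had. The level of *slc30a1*, the zinc exporter, rose in culture and passed the test, by 0.76 (SE 0.18), or 1.70-fold, with an adjusted p of 0.00205 by limma with Benjamini-Hochberg adjustment. For *rhag* the difference was 0.47 (SE 0.18), or 1.38-fold, and missed the threshold of 0.05, with an adjusted p of 0.0631 by limma. Among the tested clones 586 (11.9%) were higher in Ctrl and 471 (9.56%) were lower, 1057 (21.5%) in all, with a median difference of -0.0038. All 6 Ctrl arrays were above all 3 T0 arrays for both clones, which held for 454 of the tested clones (9.21%). Since the Ctrl arrays had a part in choosing both clones, all tested clones are not a like comparator for these counts. Without Ctrl replicate 4 the difference was 0.85 for *slc30a1* and 0.50 for *rhag*, and *rhag* then passed by limma with an adjusted p of 0.0488, within a range of 0.00759 to 0.220 over its 17 alternatives. Without T0 replicate 1 the difference was 0.80 for *slc30a1* (limma adjusted p 0.00687) and 0.56 for *rhag* (limma adjusted p 0.0688).

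The T0 arrays lay below every cultured array for both clones. Over the 24 cultured arrays *slc30a1* ran from 8.19 to 9.47 and *rhag* from 6.05 to 7.88, whereas their highest T0 values were 7.99 and 6.03. The same separation was seen for 281 of the tested clones (5.70%). As the study chose both clones on the cultured arrays, all tested clones are not a like comparator, and the separation is a description. For *rhag* the gap was only that between T0 replicate 1 at 6.03 and Fsh replicate 2 at 6.05. Relative to T0, the mean of Fsh+Tri was higher by 1.39 for *slc30a1* and by 1.52 for *rhag*, that of Fsh by 0.84 and 0.69, and that of Tri by 0.61 and 0.84.

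The arrays were read with 2 versions of the image software, the newer one on 5 arrays. Within the older version Ctrl minus T0 was 0.83 for *slc30a1* and 0.53 for *rhag* (5 Ctrl arrays, replicate 4 among them, and 2 T0 arrays). Within the newer one it was 0.57 and 0.44 (1 array each, Ctrl replicate 3 and T0 replicate 1). The difference of both clones was therefore above 0 within each version.

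Markers of other cells also differed between T0 and Ctrl. These marker clones come from the list of regulated clones, which the study chose on the Ctrl and other cultured arrays. That choice can itself favour clones low or high in Ctrl, so that all tested clones are not a like comparator. Of the 4 Sertoli cell markers, 3 passed limma's test as lower in Ctrl, against 9.56% of all tested clones, with differences of -3.47 for *amh*, -1.66 for *inha* and -1.41 for *dmrt1*, and the tight junction gene *cldn11* passed as higher, by 1.02. Their mean ran from 9.89 to 9.98 in T0 and from 7.49 to 8.93 in Ctrl, where replicate 4 was the lowest and the other 5 arrays were at 8.74 to 8.93. The steroidogenic enzyme gene *hsd3b1* fell by 1.96, from values 8.56 to 9.25 in T0 to values of 6.49 to 7.18 in Ctrl, or 6.86 to 7.18 without replicate 4. Of the smooth muscle genes, *des* was higher by 0.95 and *smtn* fell by 1.41, and the mean of both ran from 6.55 to 6.95 and from 5.96 to 6.75, or from 6.64 without Ctrl replicate 4. Of the 4 clones of macrophages and antigen presentation 0 passed limma's test and 1 had an unadjusted p under 0.05, against 21.5% of all tested clones past the test and 1585 at that p, and their mean ran from 7.50 to 7.72 and from 6.62 to 8.11, or from 7.36 without Ctrl replicate 4. The part of these cells in the rise of *slc30a1* was not tested.

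The labels give each array a maturity stage, I-II or III, which had no part in choosing the clones. The methods describe wells that held tissue of both stages, so that the label may not describe the well. All Ctrl arrays are labelled I-II, whereas 2 of the 3 T0 arrays are labelled III, so that Ctrl minus T0 partly coincides with the label. Label III is also on 3 Fsh, 2 Tri and 4 Fsh+Tri arrays, so that the treatment differences partly coincide with it too. On stage I-II arrays alone, Fsh minus Ctrl of *slc30a1* was 0.26, against 0.07 over all arrays. Its difference of the responses was then 0.66. With the stage label in the fit, Ctrl minus T0 was 0.69 for *slc30a1* (limma adjusted p 0.0120). It was 0.46 for *rhag* (limma adjusted p 0.112). With the treatment in the fit, stage III minus stage I-II was -0.12 (SE 0.11) for *slc30a1*, with an adjusted p of 0.768 by limma, and -0.005 (SE 0.12) for *rhag*, with an adjusted p of 0.992 by limma. Neither passed. Of all tested clones 0 (0.0%) passed by limma, whereas 436 had an unadjusted p under 0.05, and 110 passed with array weights and 4 with the replicate block. Within Fsh, the 3 arrays of stage I-II had *slc30a1* values of 8.78 to 9.22 and the 3 of stage III values of 8.47 to 8.63. They did not overlap, as in 290 of the tested clones (5.89%) in that direction. With 3 arrays against 3 such a separation arises easily, and it was not tested. The corresponding values of *rhag* overlapped, at 6.05 to 6.72 and 6.48 to 6.75. Within Fsh+Tri, *slc30a1* was at 9.37 to 9.46 in 2 arrays of stage I-II and 8.96 to 9.47 in 4 of stage III, and *rhag* was at 7.38 to 7.77 and 6.93 to 7.88.

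Over the 24 cultured arrays the levels of *slc30a1* and *rhag* had a Pearson correlation of 0.64. Among 4865 other clones, *rhag* ranked 24 by its correlation with *slc30a1*, and *slc30a1* ranked 23 by its correlation with *rhag*. Once the mean of each treatment was taken out, the correlation was 0.17 and the ranks were 1402 and 972. Within Fsh+Tri both clones were lowest in replicate 2, at 8.96 and 6.93, and highest in replicate 6, at 9.47 and 7.88. Their correlation was 0.86 (Spearman's rho 0.94, n = 6 arrays). It was 0.02 in Ctrl (rho -0.03), -0.16 in Fsh (rho -0.49) and -0.34 in Tri (rho 0.03), with 6 arrays each. Without the 2 arrays farthest from the median of *slc30a1* in each group, the correlation over the 4 left was 0.99 in Fsh+Tri, -0.94 in Ctrl, -0.52 in Fsh and 0.31 in Tri. Over so few arrays the values were extreme in both directions. These correlations are descriptions, since the cluster was built on the same arrays.

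**Figure D2:**
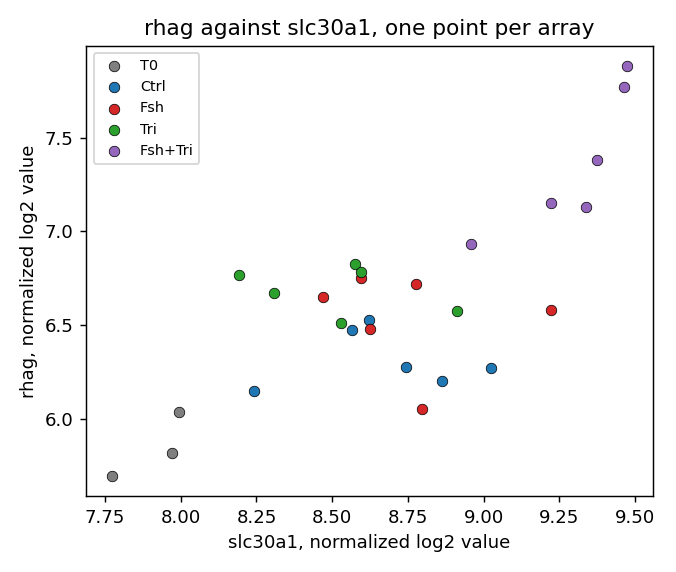
The normalized log2 value of *rhag* against that of *slc30a1*, with 1 point for each of the 27 arrays, coloured by group. The Fsh+Tri arrays form the upper right of the plot, and the T0 arrays the lower left, with *slc30a1* at most 7.99 and *rhag* at most 6.03.

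The clones most like *slc30a1* over the cultured arrays, the 5 with the highest Pearson correlation, ran from 0.71 to 0.78, and none had a name in the list used here. Of the 5 most like *rhag*, 2 were named. These were *pgd*, which encodes 6-phosphogluconate dehydrogenase of the pentose phosphate pathway, at 0.77, and *hgfac*, which encodes the activator of hepatocyte growth factor, at 0.72. All arrays share the treatments, so that these values are descriptions.

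The remaining 4 clones of the cluster were *pgd*, *ywhaqb*, *inhba* and *sl*. In Fsh+Tri minus Tri, the response of *slc30a1* and *rhag* (0.79 and 0.68) stood beside that of *pgd*, at 0.65, and of *ywhaqb*, an adaptor protein gene, at 0.60. Those of *inhba*, a subunit of activin, and *sl*, the hormone somatolactin, were 0.13 and -0.01. In Fsh minus Ctrl, without trilostane, *pgd* was at 0.52, *ywhaqb* at 0.08, *inhba* at -0.13 and *sl* at -0.55. Thus *pgd*, unlike *slc30a1* and *rhag*, had responses to Fsh of similar size without and with trilostane. In Tri minus Ctrl, *sl* was at 1.23, *pgd* at 0.89, *inhba* at 0.49 and *ywhaqb* at 0.14. Of the clones of the cluster, *slc30a1* was the only one with a Tri minus Ctrl value below 0. That value, -0.16 (SE 0.15), was about the size of its SE.

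In culture alone, 4 of the 6 clones of the cluster, *slc30a1* among them, were higher in Ctrl than in T0 by limma. Of the others, 1 was lower and *rhag* did not pass. Of all tested clones 11.9% were higher and 9.56% lower. The cluster was chosen on the Ctrl and other cultured arrays, so that all tested clones are not a like comparator. The level of *pgd* was higher by 2.16 (SE 0.24, limma adjusted p 5.94e-08), that of *ywhaqb* by 1.81 (SE 0.17, limma adjusted p 1.84e-09) and that of *sl* by 1.17 (SE 0.15, limma adjusted p 9.63e-07). That of *inhba* fell by 0.85 (SE 0.23, limma adjusted p 0.00739). The *ywhaqb* clone is also annotated as a serine/threonine-protein kinase, so that its gene is uncertain.

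**Figure D3:**
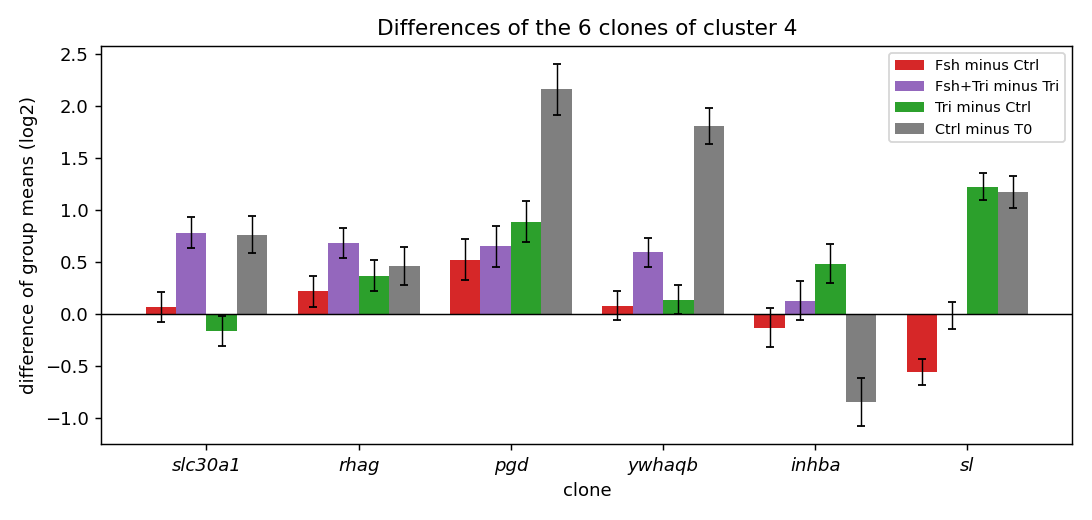
Differences of group means on the log2 scale for the 6 clones of the cluster, with a bar for each contrast and error bars of 1 SE. *slc30a1* and *rhag* stand at 0.79 and 0.68 in Fsh+Tri minus Tri, and at 0.07 and 0.22 in Fsh minus Ctrl.

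The wider zinc and ammonium systems could not be read from the named clones. Of the other zinc transporters and metallothioneins, and of the other Rh proteins and acid-base transporters, 0 had a named clone. In the RefSeq annotation of assembly USDA_OmykA_1.1, the genes named *slc30a1a* and *rhag* lie on the same chromosome, with 2 genes annotated between them, *rd3* and *si:ch211-22i13.2*, both protein coding. This position had no part in choosing the clones. The clones were matched to the annotation by name and not by sequence. A second gene, *rhd*, carries RHAG as a synonym and lies on another chromosome, so that which of these genes the *rhag* clone measures was not settled here.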

How the data were processed

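Radiolabelled cDNA from total RNA was hybridised to nylon arrays of trout cDNA clones, on 27 arrays. The authors deposited spot intensity from their image software and a table of log2 values. Per their methods, these log2 values are spot intensities corrected for the amount of spotted cDNA with the hybridisation signal of an oligonucleotide of the vector, then quantile normalized. Spot files name spots by grid position only, so that the log2 values were the input. Precision is limited by the number of arrays. Columns of samples not used number 0.

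Of 9216 rows, 192 controls were left out. A clone was tested with a value on at least 80% of arrays (8244 clones) and, in 1 group or more, a mean not below the experiment's median of 6.40 (4927 clones). With limma 3.58.1 (lmFit, then eBayes; R 4.3.3) a mean per group was fitted to all 27 arrays, and a stage term was added for the stage label, with Benjamini-Hochberg adjustment over all clones tested and a threshold of 0.05. Descriptions used Python 3.11.15 with pandas 2.3.3 and matplotlib 3.10.9. The fits were first tested on simulated data. Treatment and replicate came from the labels.

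The genes named are both transporters, the other clones of their cluster, the 5 clones most correlated with each, and up to 4 members of each gene list. Members and lists were chosen with earlier results of these data known. Alternatives covered normalization, filter, samples, stage, software version, replicate block, array weights and leaving out each array. RefSeq served for gene names and for which genes neighbour each other, and no sequence was used.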

Additional observations from a re-analysis of the deposited data

How the results depend on the processing

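For *slc30a1*, Ctrl minus T0 passed by limma in 17 of 17 alternatives (0.69 to 0.88, adjusted p 5.07e-05 to 0.0212). For *rhag* it passed in 2 of 17 (0.37 to 0.61), which were array weights, with 0.61 and an adjusted p of 0.00759 by limma, and leaving out Ctrl replicate 4, within 0.39 to 0.56 over the arrays left out. With only the Ctrl and T0 arrays 586 clones passed, against 1057. For the stage label 110 clones passed with array weights and 4 with the replicate block, against 0. On stage I-II arrays alone, *rhag* had a Fsh+Tri minus Fsh of 1.13 and a difference of the responses of 0.74. Of 154 alternatives for the untested differences, these were the only 2 that moved by more than the spread between replicates. Most of the 154 left out 1 array of a group of 6, which by arithmetic could not move a difference that far. They therefore do not show that the differences are stable. The cause of the changes between settings was not tested.

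Of 48 pairs of arrays with the same replicate number, 8 had deviations with a correlation over 0.1 (-0.34 to 0.26). Of the 3 pairs of T0 with Ctrl 2 did (median 0.24), so that these values do not settle whether T0 and Ctrl were paired. The methods describe wells filled at random from a pool, and the main fit did not take the numbers to pair the arrays. With the replicate block, Ctrl minus T0 was 0.74 for *slc30a1* (limma adjusted p 0.00900) and 0.37 for *rhag* (limma adjusted p 0.177), with 900 clones past the threshold. The alternative from spot intensity was not run, because spots carry grid positions only.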

Other observations

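Of 7 other clones of transporters or their partners in the list of regulated clones, 3 rose and 1 fell in Ctrl against T0 by limma, with a median difference of 0.48, against 11.9% of all tested clones higher and 9.56% lower. The clones of *slc26a4*, an anion exchanger, and *slc25a5*, a mitochondrial ADP/ATP carrier, were higher by 1.75 and 0.59, that of *slc7a3*, a cationic amino acid transporter, by 0.48, and that of the cholesterol exporter *abca1* fell by 0.69. In the treatments, *slc26a4* was at 7.27 in Ctrl, 9.50 in Fsh, 5.59 in Tri and 5.62 in Fsh+Tri, and *slc7a3* was at 6.61, 7.35, 6.93 and 7.28. The means of *abca1* were 6.84 in Ctrl, 7.61 in Fsh, 7.23 in Tri and 7.79 in Fsh+Tri. It was the only listed clone with its highest mean in Fsh+Tri, and the others were highest in Fsh. Unlike for *slc30a1* and *rhag*, the difference made by Fsh for *abca1* was not larger with trilostane than without it. As the study chose these clones on the cultured arrays, the treatment means are descriptions. For the same reason, all tested clones are not a like comparator for the count in Ctrl against T0.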
